A study of Mus musculus with 4 samples.

Results

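The placental cathepsin cluster of mouse chromosome 13 was described in blastocysts made by somatic cell nuclear transfer (SCNT) or by in vitro fertilization (IVF). Its 10 members, out of 23235 genes listed for each library, are BC051665, Cts3, Cts6, Cts7, Cts8, Ctsj, Ctsm, Ctsq, Ctsr and Ctsl, and each was matched by its symbol. The cluster was selected on the FPKM of BC051665 in the SCNT and IVF libraries, which differed, and the other 9 were added as relatives of cathepsin L on the same chromosome. The SCNT and IVF values of the members are therefore a description, and no test is given for them.

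RNA came from early blastocysts lysed 96 hours after activation or fertilization, with 6 pooled embryos per library and 2 libraries per group. The SCNT embryos were made from nuclei of embryonic fibroblasts, heterozygous for an Xist knockout, of a 129S1/SvImj mother and a CAST/EiJ father, placed in recipient oocytes of B6D2F1/J females. For IVF, Xist knockout oocytes of the 129S1/Svj background met wild-type CAST/EiJ sperm. A maternal Xist knockout is therefore part of both groups, while the strain of the oocyte was among the things that differed. Xist was listed at 4.13 and 3.33 FPKM in the SCNT libraries and at 1.09 and 13.9 FPKM in the IVF libraries. Xist is X-linked, so donor nuclei heterozygous for its knockout would be female, while no sex is recorded here for the IVF embryos. Embryo sex may therefore differ between the groups and then cannot be told apart from their other differences. Its part in any difference was not tested. The SCNT column headers include the word kdm4d, the symbol of a histone demethylase gene, and the labels give no such treatment. The labels do not say whether the libraries of a group had separate parents, so each p-value covers the spread among these 4 libraries only, and that spread may be technical. Values are FPKM, fragments per kilobase of transcript scaled to the mapped total, which allows levels of different genes to be compared, and differences are SCNT minus IVF on the log2(FPKM + 1) scale, which understates changes of low genes. Summed FPKM was 956773 and 976790 in the SCNT libraries and 933167 and 985197 in the IVF libraries, and the absolute depth is unknown.

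Cathepsin L is a cysteine protease that is made as an inactive proenzyme, is carried to the lysosome and cuts proteins there with a cysteine in its active site. Rodents carry a set of further copies of this gene on the same chromosome, and most of them are known for expression in the placenta, in trophoblast cells including giant cells. The blastocyst precedes the placenta, and its outer layer, the trophectoderm, is the source of trophoblast. BC051665 is named after a cDNA and has no established role.

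The stretch that codes for the active site is shown for BC051665, for Ctsll3, its immediate neighbour and closest relative among the genes compared, and for Ctsl, because it holds the residue on which the enzyme depends and shows how these copies differ. The sequences were taken from GENCODE M21 transcripts of the GRCm38 assembly. Capitals mark the codon of the active-site cysteine, which is codon 146 of BC051665, codon 139 of Ctsll3 and codon 138 of Ctsl.
BC051665: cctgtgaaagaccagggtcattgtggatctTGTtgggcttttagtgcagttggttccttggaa
Ctsll3: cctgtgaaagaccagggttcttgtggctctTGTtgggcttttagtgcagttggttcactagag
Ctsl: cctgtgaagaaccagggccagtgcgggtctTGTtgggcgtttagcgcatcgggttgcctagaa
Over these 63 bases BC051665 differed from Ctsll3 at 7 and from Ctsl at 14 positions. The same codon, TGT, stood at the matching place in all 10 members, and the other 8 members differed from BC051665 at 15 to 27 of the 63 bases.

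BC051665 was listed at 104 and 85.8 FPKM in the SCNT libraries and at 4.58 and 6.40 FPKM in the IVF libraries. Both SCNT libraries lay far above both IVF libraries, and the groups did not overlap. The mean level was 95.1 ± 13.2 FPKM in SCNT and 5.49 ± 1.29 FPKM in IVF (SD, n = 2 each), a ratio of 17.3. In SCNT blastocysts the gene ranked above 95.0% and 93.8% of all listed genes, against 67.0% and 71.3% in IVF blastocysts. The difference was 3.90 ± 0.22 (SE) on the log2 scale. Here and below, SE is the moderated standard error from limma, which draws on the spread of all tested genes and not of 1 gene alone. The difference was 4.24 between SCNT library 1 and IVF library 1 and 3.55 between SCNT library 2 and IVF library 2, libraries that share a number in the labels.

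Set against all tested genes, those with a mean of at least 1 FPKM over the 4 libraries, the difference of BC051665 ranked 17 of 11039, counted from the most positive, and 2 among the 10834 genes that are not microRNA or small nucleolar RNA genes. As a ratio of mean FPKM, 6 tested genes above 0 in both IVF libraries, BC051665 included, reached its 17.3 or more. limma called 14 of 11039 genes at an adjusted p under 0.05, which is 0.127% of the genes tested. The values that chose BC051665 enter the same fit, so no call is given for it. With 2 libraries against 2, an exact two-sided permutation test cannot give a p below 0.333 for a single gene.

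**Figure D1:**
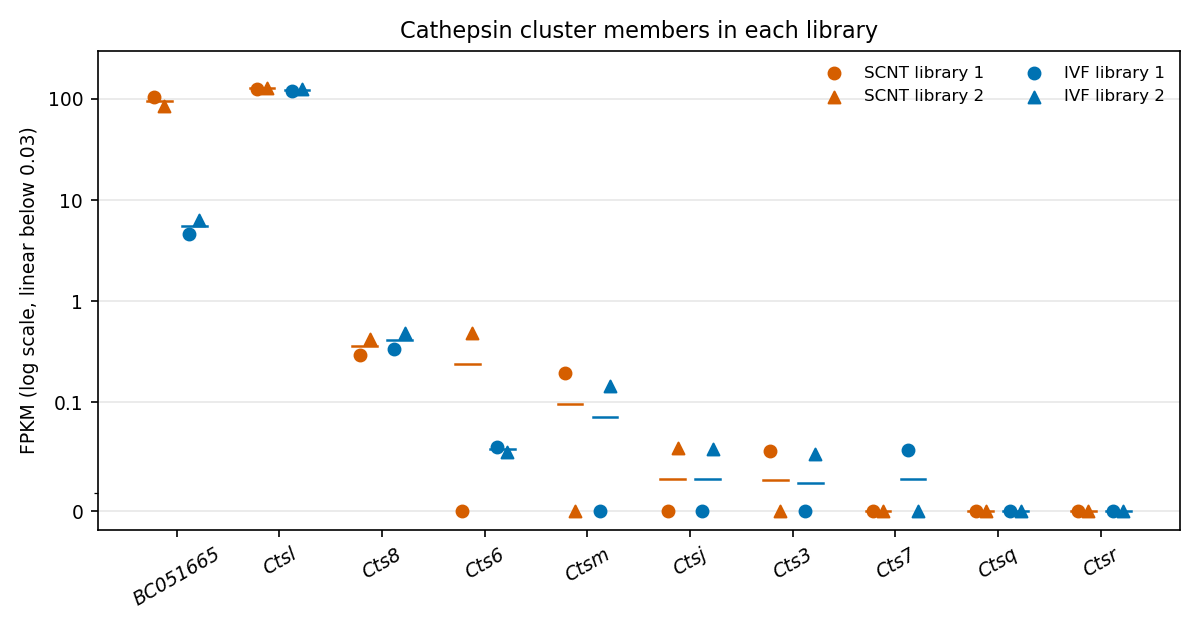
FPKM (log scale, linear below 0.03) of the 10 cluster members in each library, with SCNT left of IVF; circles are library 1, triangles library 2 and short lines group means. BC051665 lies at 104 and 85.8 FPKM in SCNT and at 4.58 and 6.40 FPKM in IVF, Ctsl lies near 120 FPKM in every library, and the other 8 members stay under 0.5 FPKM.

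Ctsl, the lysosomal protease that gives the family its name and that most tissues express, was listed at 125 and 129 FPKM in the SCNT libraries and at 120 and 126 FPKM in the IVF libraries. The groups overlapped, with means of 127 ± 2.49 FPKM in SCNT and 123 ± 4.66 FPKM in IVF (SD, n = 2 each). The difference was 0.04 ± 0.17 (SE) on the log2 scale, and it was -0.01 when FPKM was rescaled without microRNA and small nucleolar RNA genes. Ctsl had the highest level of the 10 members in each library. BC051665 reached 83.4% and 66.6% of the Ctsl level in the SCNT libraries, against 3.82% and 5.06% in the IVF libraries. The summed level of all members was 230 and 215 FPKM in SCNT and 125 and 134 FPKM in IVF, and nearly all of it came from these 2 genes: the other 8 together summed to 0.522 and 0.937 FPKM in SCNT and to 0.404 and 0.728 FPKM in IVF.

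Cts8, a placental member expressed in trophoblast giant cells, was the third member above 0 in every library. It was listed at 0.295 and 0.422 FPKM in the SCNT libraries and at 0.334 and 0.487 FPKM in the IVF libraries. The groups overlapped, and both libraries numbered 2 were higher than both numbered 1. The difference was -0.05 on the log2 scale. BC051665 therefore stood at 354 and 203 times the level of Cts8 in the SCNT libraries and at 13.7 and 13.1 times in the IVF libraries.

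Of the remaining members, 5 were above 0 in some libraries. Cts6 was listed at 0 and 0.480 FPKM in the SCNT libraries and at 0.0364 and 0.0319 FPKM in the IVF libraries, so a single SCNT library was high and the groups overlapped. Ctsm was listed at 0.194 and 0 FPKM in the SCNT libraries and at 0 and 0.144 FPKM in the IVF libraries. Each group thus had a library with Ctsm and a library without it.

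Ctsj was listed at 0 and 0.0350 FPKM in the SCNT libraries and at 0 and 0.0348 FPKM in the IVF libraries. Cts3 was listed at 0.0333 and 0 FPKM in the SCNT libraries and at 0 and 0.0308 FPKM in the IVF libraries. Cts7, another member of trophoblast giant cells, was listed at 0 in both SCNT libraries and at 0.0341 and 0 FPKM in the IVF libraries. None of these 3 genes separated the groups.

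Ctsq, which marks giant cells of the placental labyrinth, and Ctsr were listed at 0 in all 4 libraries. In all, 8 members had a mean under 1 FPKM and did not enter the test. Ctsj had nearly equal values in libraries SCNT 2 and IVF 2. Among genes under 0.5 FPKM in this pair of libraries the commonest ratio was 1.01, which estimates the ratio of what a fragment is worth in each. Because no counts are given, a gene at 0 cannot be told from one below detection. The groups stood apart without overlap for 1 of the 10 members, BC051665, as higher in SCNT, a separation seen in 14.2% of all 23235 listed genes, and for 0 members as lower, against 12.4%.

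The members lie close to each other on chromosome 13. In the order of RefSeq genes on GRCm38.p6, BC051665 came first and Cts3 last of 9 members, with 21 RefSeq genes between them, while 78 genes separated Cts3 from Ctsl. Taken with 10 RefSeq genes on each side, this stretch held 12 further genes with a deposited value. Of these, 4 reached a mean of 1 FPKM, and limma called 0 of the 4 at an adjusted p under 0.05 (1 had an unadjusted p under 0.05, as did 7.09% of all genes tested).

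The gene next to BC051665 is Ctsll3, a further cathepsin L-like copy. It was listed at 0.305 and 0.156 FPKM in the SCNT libraries and at 0 and 0.0381 FPKM in the IVF libraries. Both SCNT libraries were above both IVF libraries, at levels too low for the test. The following gene, 4930486L24Rik, was listed at 14.9 and 16.6 FPKM in the SCNT libraries and at 8.37 and 11.9 FPKM in the IVF libraries. Its groups did not overlap either, and the difference of 0.60 ± 0.22 (SE) did not pass with limma (unadjusted p = 0.0421, adjusted p = 0.663).

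On the other side of BC051665, Dapk1, a death-associated protein kinase gene, had 4.13 and 3.68 FPKM in SCNT, against 3.66 and 3.07 FPKM in IVF (difference 0.17, limma adjusted p = 1.0). Ctla2a, which encodes an inhibitor resembling the propeptide of cathepsins, had 2.26 and 3.88 FPKM in SCNT, against 1.67 and 2.97 FPKM in IVF, and the groups overlapped. Its copy Ctla2b and the trophoblast genes Tpbpa and Tpbpb were listed at 0 in all 4 libraries. BC052688, beyond Cts3, had 86.9 and 101 FPKM in SCNT, against 89.8 and 118 FPKM in IVF. On the log2(FPKM + 1) scale, the difference of BC051665 was larger than that of every other gene with a value in the stretch. BC051665 was selected on this difference, so its place gives no support. Of the 43 RefSeq genes in the stretch, 21 had a value.

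**Figure D2:**
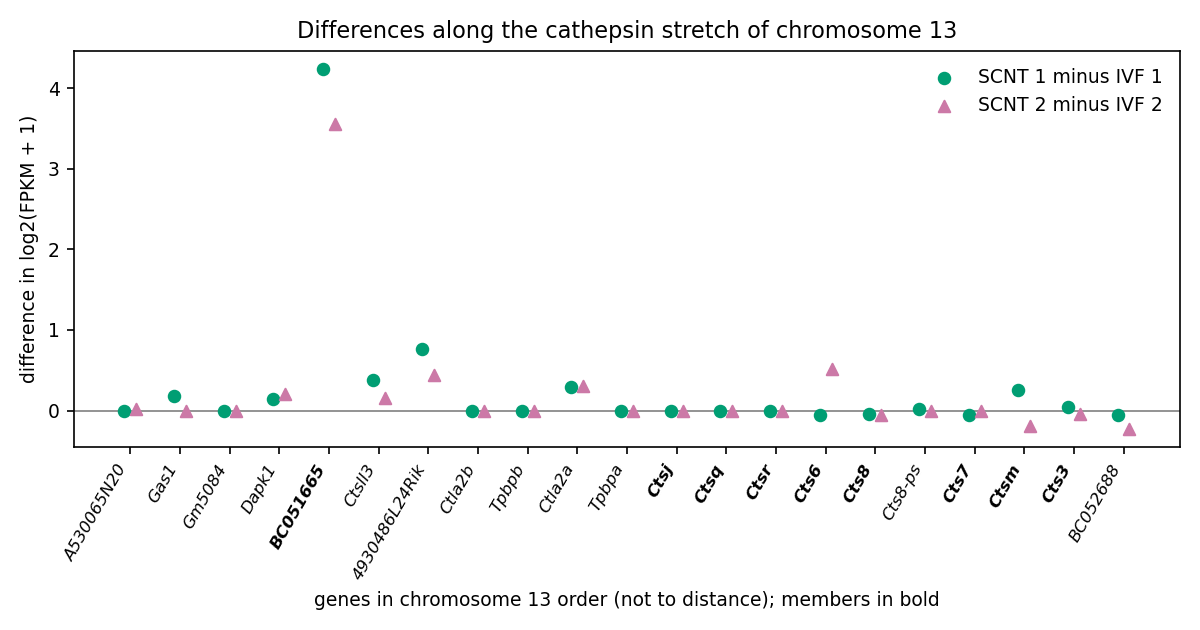
Difference in log2(FPKM + 1) between SCNT and IVF libraries of the same number for the 21 genes with a value in the stretch, in chromosome 13 order and not to distance; members are in bold. BC051665 lies at 4.24 and 3.55, while the next gene by mean difference on this scale, 4930486L24Rik, lies at 0.76 and 0.44. The scale understates changes of low genes such as Ctsll3, which lies at 0.38 and 0.16.

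The promoters of BC051665 and Ctsll3 are shown because these neighbours both had higher levels in SCNT. The next gene, 4930486L24Rik, was also higher in SCNT without overlap, and its promoter is not shown. Ctsll3 reached 0.305 FPKM at most, and whether promoter likeness bears on the levels was not tested. Each sequence is the 250 bases before the start site in RefSeq on GRCm38.p6, at chr13:60786365-60786614 for BC051665 and chr13:60802845-60803094 for Ctsll3, both on the minus strand, and capitals mark the motif TATAAA.
BC051665: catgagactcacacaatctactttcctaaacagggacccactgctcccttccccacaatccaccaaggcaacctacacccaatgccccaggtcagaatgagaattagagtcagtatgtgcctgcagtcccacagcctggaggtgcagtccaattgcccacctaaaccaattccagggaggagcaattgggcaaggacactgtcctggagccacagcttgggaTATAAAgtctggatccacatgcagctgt
Ctsll3: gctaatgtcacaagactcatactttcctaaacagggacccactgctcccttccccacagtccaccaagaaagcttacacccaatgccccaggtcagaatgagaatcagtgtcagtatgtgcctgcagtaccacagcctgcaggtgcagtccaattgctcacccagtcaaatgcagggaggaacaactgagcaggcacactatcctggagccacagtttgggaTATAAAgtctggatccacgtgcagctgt
The pair was identical at 217 of 242 aligned bases (89.7%). In both, TATAAA began 28 bases before the start site, written as -28, on the strand of the gene. The same motif began at -27 for Ctsm and at -25 for Cts3, and it was not found in the window of 4930486L24Rik. Ctsm and Cts3 reached 0.194 and 0.0333 FPKM at most, too low for a difference to be read. Within -35 to -20 of the start on the strand of the gene, 1.84% of 32851 RefSeq windows held TATAAA.

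In the same windows on both strands, TATAAA was found for 4 of the 10 members (BC051665, Cts3, Ctsm and Ctsq), and in 12.4% of all windows. GGAAGT, the core of ETS factor motifs, was found for 4 members (Cts6, Cts8, Ctsj and Ctsq), and in 19.7% of all windows. TTTATNG, a CDX motif, was found for Ctsq, where it overlapped TATAAA, and in 9.81% of windows. The motif GGAATG of TEAD factors was found for 0 members and in 12.6% of windows, and GCCNNNGGC of AP-2 factors for 0 members and in 13.7%. The AGATAA motif was likewise found for 0 members, and in 9.99% of windows. These are matches of letters in a short window and show neither binding nor its absence.

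How far reads of the copies can be told apart bears on all these values. Across the 45 pairs of members, aligned coding sequences were 65.8% to 89.9% identical, with a median of 72.7%. BC051665 was 69.2% to 72.5% identical to the other 9 members, and 71.5% to Ctsl. It was 88.1% identical to Ctsll3. The closest pair of members was Cts3 and Ctsm, at 89.9%.

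Of 968 stretches of 50 bases in the coding sequence of BC051665, 36 (3.72%) also occurred in a transcript of another gene with a deposited value, all of them in Ctsll3. No such stretch was shared by Cts6, Cts7, Ctsj, Ctsq, Ctsr or Ctsl, and Cts8 shared 4 with its pseudogene Cts8-ps. Cts3 and Ctsm shared 108 with each other (11.4% and 11.3%), the largest shares among the members by this measure. Only the coding sequence of each member was searched, and genes without a deposited value were not counted. The sources used here do not say how the authors divided reads of shared stretches. Whether reads of BC051665 reached the listed level of Ctsll3 was not tested.

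**Figure D3:**
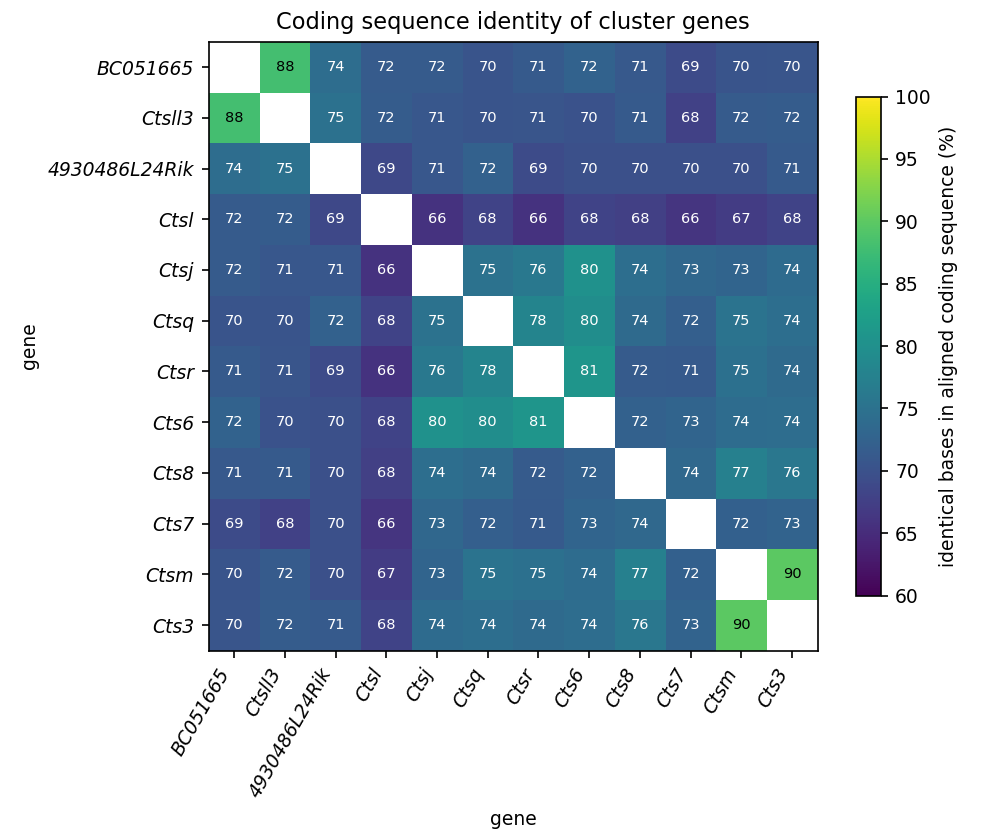
Percentage of identical bases between aligned coding sequences for the 10 members, Ctsll3 and 4930486L24Rik, each cell a pair. The most alike pairs are Cts3 with Ctsm at 89.9% and BC051665 with Ctsll3 at 88.1%, and Ctsl is the member least like the placental copies.

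The genes whose profile over the 4 libraries was nearest to that of BC051665 were found by the distance between log2(FPKM + 1) values centred on each gene's mean, among 10833 tested genes without microRNA and small nucleolar RNA genes. The nearest was the predicted gene 4930461G14Rik at a distance of 0.88, with 8.33 and 13.7 FPKM in SCNT and 0.0892 and 0.223 FPKM in IVF. Myl9, a myosin regulatory light chain gene, followed at 1.47, with 14.1 and 29.0 FPKM in SCNT and 0.970 and 3.37 FPKM in IVF. Next came the tetraspanin gene Tspan1 at 1.57, the keratin gene Krt19 at 1.93 and Slc39a2, a zinc transporter gene, at 2.09. For all 5 the SCNT libraries lay above the IVF libraries without overlap, as a near profile requires.

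Cathepsins outside the cluster, some of other enzyme classes, gave no call. Of 13 genes, 6 were tested and limma called 0 of them at an adjusted p under 0.05, with 0 at an unadjusted p under 0.05. The shares over all genes tested were 0.127% and 7.09%, from which 0 of 6 cannot be told apart. Their median difference was 0.15, against 0.01 over all genes tested. Ctsd, the lysosomal aspartic protease, had 148 and 166 FPKM in SCNT, against 275 and 174 FPKM in IVF (difference -0.48 ± 0.28, limma adjusted p = 0.898). Ctsa, a serine carboxypeptidase, had 81.2 and 95.0 FPKM in SCNT, against 73.1 and 62.5 FPKM in IVF (difference 0.37 ± 0.19, limma adjusted p = 0.857).

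Ctsz, a cysteine carboxypeptidase, had 40.0 and 68.6 FPKM in SCNT, against 33.5 and 37.4 FPKM in IVF, a difference of 0.55 ± 0.29 (limma adjusted p = 0.864). Ctsc, a dipeptidyl peptidase, differed by -0.28 ± 0.24 (limma adjusted p = 0.991). The other 7 cathepsins of this list had a mean under 1 FPKM, among them Ctse, listed at 0 in all 4 libraries. Of the 9 cluster relatives and propeptide-like genes, 3 were tested and limma called 0, against 0.127% of all genes tested. At an unadjusted limma p under 0.05 stood 1 of the 3, against 7.09% of all genes tested. It was 4930486L24Rik, the gene already counted among the neighbours. The third tested gene of this list was Tinagl1, which encodes a secreted matrix protein related to cathepsins. Tinagl1 had 66.2 and 56.8 FPKM in SCNT, against 70.1 and 65.2 FPKM in IVF.

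Cystatins and stefins bind and block cysteine cathepsins. Of 21 such genes with a value, 9 were tested and limma called 0 at an adjusted p under 0.05, with 1 higher and 1 lower at an unadjusted p under 0.05 (4.25% and 2.84% of all genes tested). Cst6, which encodes an inhibitor of cathepsin L and legumain, had 1.38 and 1.82 FPKM in SCNT, against 0.672 and 0.722 FPKM in IVF (difference 0.61 ± 0.20, limma adjusted p = 0.574). Fetub, a secreted relative of cystatins that inhibits a zinc protease of the oocyte, averaged 1.5 ± 0.709 FPKM in SCNT and 6.71 ± 0.915 FPKM in IVF (SD, n = 2 each), without overlap. Its difference was -1.65 ± 0.26 (limma adjusted p = 0.258). Cst7 differed by -0.41 ± 0.18 and Csta by 0.48 ± 0.28, and neither passed. Cstb, the most abundant gene of the list, had 1192 and 1400 FPKM in SCNT, against 1267 and 1664 FPKM in IVF; it was chosen after its values were seen.

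Genes that deliver cathepsins to the lysosome and mature them gave 19 tested genes of 22, with a median difference of -0.03. Limma called 0, with 0 at an unadjusted p under 0.05, against 0.127% and 7.09% of all genes tested. At such shares, counts of 0 among 19 genes say little about the list. Lgmn, the protease that processes cathepsins, had 59.1 and 58.0 FPKM in SCNT, against 49.6 and 43.8 FPKM in IVF (difference 0.32 ± 0.17, limma adjusted p = 0.872). Lamp2, a lysosomal membrane protein gene, had 15.0 and 18.9 FPKM in SCNT, against 21.5 and 29.7 FPKM in IVF (difference -0.56 ± 0.24, limma adjusted p = 0.758). Igf2r, the cation-independent mannose 6-phosphate receptor and an imprinted gene, differed by -0.49 ± 0.27, and Gnptab, which helps to make the mannose 6-phosphate tag, by 0.19 ± 0.19. None of these 4 passed.

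Genes of trophoblast giant cells and placenta were mostly low or at 0. Of 36, 30 had a mean under 1 FPKM and 10 were listed at 0 in all 4 libraries, among them Prl2c2, Prl7d1 and Prl8a8 of the prolactin family. Of the 6 tested, limma called 0 at an adjusted p under 0.05. At an unadjusted limma p under 0.05, 3 were higher in SCNT, as were 4.25% of all genes tested, and 0 were lower. This list was chosen with earlier results of these data known, so the count is a description. Plac1, a placental growth gene, had 90.1 and 86.9 FPKM in SCNT, against 21.8 and 33.3 FPKM in IVF (difference 1.68 ± 0.25, limma adjusted p = 0.224). Plac8 had 12.9 and 17.2 FPKM in SCNT, against 2.70 and 5.21 FPKM in IVF (difference 1.73 ± 0.31, limma adjusted p = 0.301). Psg23, a pregnancy-specific glycoprotein gene, differed by 0.57 ± 0.19 (limma adjusted p = 0.574), and Slco2a1, a prostaglandin transporter gene, by 0.29 ± 0.23.

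**Figure D4:**
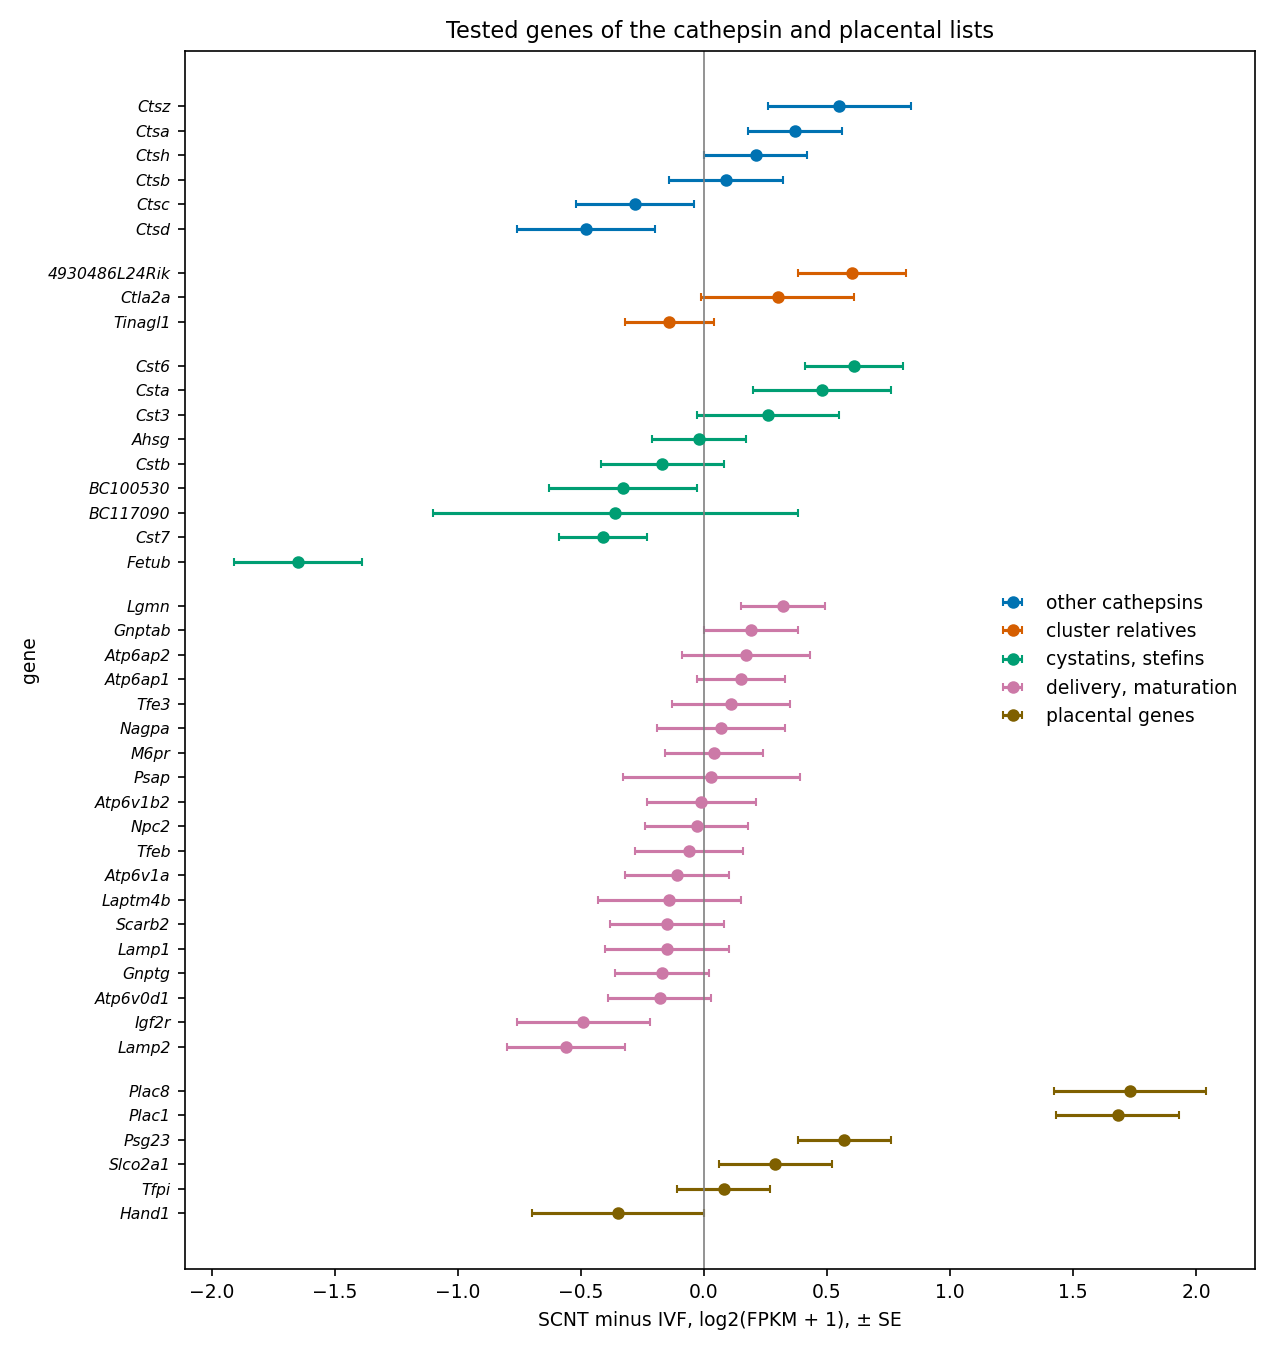
Difference, SCNT minus IVF, in log2(FPKM + 1) for the tested genes of 5 lists (other cathepsins, cluster relatives, cystatins and stefins, delivery and maturation, placental genes); points are estimates and bars are ± SE from limma. Fetub at -1.65, Plac8 at 1.73 and Plac1 at 1.68 lie farthest from 0, and no gene in the plot passed over all genes tested.

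Markers of the blastocyst were present in both groups. All 15 trophectoderm markers were tested, and their summed level was 7430 and 5320 FPKM in SCNT and 5240 and 4690 FPKM in IVF. The keratin genes Krt8 and Krt18 made up most of each sum, and for both the groups overlapped. Estimates were higher in SCNT for 13 of the 15, and limma called 0 at an adjusted p under 0.05. At an unadjusted limma p under 0.05, 6 were higher and 0 lower, against 4.25% higher and 2.84% lower among all genes tested. The markers were chosen with earlier results of these data known, so these counts are a description and not independent support. Cdx2 had 36.6 and 29.5 FPKM in SCNT, against 20.0 and 21.7 FPKM in IVF. Gata3 had 145 and 124 FPKM in SCNT, against 139 and 115 FPKM in IVF. Elf5 had 17.9 and 9.50 FPKM in SCNT, against 3.23 and 3.88 FPKM in IVF. Eomes had 43.5 and 24.4 FPKM in SCNT, against 18.8 and 14.2 FPKM in IVF. The part of these markers in the level of BC051665 was not tested, and in pooled embryos more cells of a type and more RNA per cell cannot be told apart.

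Markers of other cells were summed in the same way. The 8 markers of inner cell mass and epiblast summed to 362 and 396 FPKM in SCNT and to 319 and 361 FPKM in IVF. Limma called 0 of them, with 0 at an unadjusted p under 0.05, against 0.127% and 7.09% of all genes tested. The 6 markers of primitive endoderm summed to 198 and 188 FPKM in SCNT and to 194 and 131 FPKM in IVF. Sparc and Gata6 made up most of each sum. At an adjusted p under 0.05, limma called 0 of the 6. At an unadjusted limma p under 0.05, 3 were higher and 0 lower, against 4.25% and 2.84% of all genes tested. These markers too were chosen with earlier results of these data known. Their median difference was 0.46, against 0.40 for the trophectoderm markers and 0.01 over all genes tested. Sparc, a matrix glycoprotein gene, had 63.1 and 80.1 FPKM in SCNT, against 35.2 and 27.9 FPKM in IVF, while Gata6, a transcription factor gene of that lineage, had 102 and 74.9 FPKM in SCNT, against 133 and 81.8 FPKM in IVF. The part of these markers in the level of BC051665 was not tested either. The 12 markers of fibroblasts, the donor cell type, summed to 8.41 and 1.22 FPKM in SCNT and to 4.08 and 1.65 FPKM in IVF, so the groups overlapped, and Twist2 was listed at 0 throughout. The 8 markers of cumulus and granulosa cells summed to 0.317 and 0.617 FPKM in SCNT and to 0.417 and 0.613 FPKM in IVF, and Amh, Cyp19a1 and Ptx3 were listed at 0 in all 4 libraries.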

How the data were processed

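RNA of 4 libraries of pooled mouse blastocysts was analysed. Per the labels' protocols, whole embryos were lysed, a SMARTer Ultra Low Input kit gave amplified cDNA, and NEBNext Ultra DNA libraries were made from the sheared product. The authors deposited a value per gene symbol that was taken to be FPKM; the unit is inferred from the tools and the values. Per the submitters' processing notes, the tools were Cufflinks 2.2.1, TopHat2 2.0.14 and Bowtie2 2.1.0 and the build mm9; the sources used here give neither annotation nor parameters nor strand use. Amplifying RNA of few cells makes low values noisy.

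Genes with a mean of at least 1 FPKM were tested on log2(FPKM + 1) in R 4.3.3 using limma 3.58.1, with a mean-variance trend and no term besides group, and called at a Benjamini-Hochberg adjusted p under 0.05. The code of the fit was checked on simulated data with independent normal errors and spreads shuffled among genes. Such data do not test whether these assumptions hold for the 4 libraries. No count test was used. Relative depth was read from the commonest ratio among genes under 0.5 FPKM. Gene order and promoters came from RefSeq (GRCm38.p6) and coding sequences from GENCODE M21, as the longest reading frame of the longest coding transcript, aligned with Biopython 1.88 (match 2, mismatch -1, gap opening -4, extension -0.5). A protein comparison had been planned and was not made; coding sequences were compared instead. No coordinates of the deposited values' build are given.

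The members and lists were chosen with earlier results of these data known. Genes named are all members, up to 4 genes of each list by unadjusted p, the first 4 trophectoderm markers as written (Cdx2, Gata3, Elf5 and Eomes), Sparc and Gata6, chosen after their values were seen, and the 5 genes nearest in profile. All 4 tested neighbours of the cluster, Ctsll3 and genes listed at 0 are also named. Alternatives were other pseudocounts, filters and scalings, the replicate number as a block, and leaving out each library.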

Additional observations from a re-analysis of the deposited data

How the results depend on the processing

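BC051665 was higher in SCNT under all 11 alternatives. With non-overlapping groups, most of these alternatives could not change that direction, so it gives no support to a gene selected on this difference. Its difference of 3.90 became 3.25 with a pseudocount of 5, which by construction shrinks differences, and lay between 3.69 and 4.10 when a library was left out. For Ctsl, 0.04 became -0.01 with FPKM rescaled without microRNA and small nucleolar RNA genes, and lay between 0.01 and 0.08 when a library was left out. Over all genes, 8 were called higher and 6 lower; without a filter on low values 5 were higher and 5 lower, and leaving out a library gave 13 to 31 higher and 11 to 30 lower, the remaining single library then being assumed to vary like the others; the cause was not tested. None of the 6 gene lists, neighbours included, had a called gene with limma under any of these alternatives. With the replicate number as a block, 12 genes were called higher and 8 lower, and the difference of BC051665 was 3.90 ± 0.20 (SE). Same-numbered libraries deviated together (correlation across 11039 genes 0.309), but with 2 libraries a group this does not show that the numbers pair the samples. Members under 1 FPKM rest on too little signal for a difference to be read.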
